A study of Rattus norvegicus with 24 samples.

Results

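The comparison set rat INS1 cells that had been induced and given the kinase modulator PAIR1 against uninduced cells that had received only the drug vehicles, both 24 h after the start of induction. Its members are 6 libraries of the 24 in the series, chosen by their labels: 3 of PAIR1 and 3 of uninduced cells. INS1 is an insulin-secreting insulinoma line, here carrying a mouse IRE1α (Ern1) transgene under doxycycline control, which the uninduced cells carry too. The other groups used here are induced cells given vehicle and induced cells given KIRA9, a second modulator of the same kinase, at 24 h, and the same 4 treatments at 4 h, each with 3 libraries. The labels give no dose, and no group of uninduced cells received a compound, so effects of PAIR1 or of doxycycline that do not pass through the transgene cannot be told apart from those that do.

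IRE1α is a sensor of unfolded protein in the endoplasmic reticulum. Its cytosolic part joins a kinase and an RNase. When the sensor clusters, the kinase phosphorylates it in trans, and the RNase then excises an intron from Xbp1 mRNA, which yields a transcription factor for folding and secretory genes. Under stronger activation the RNase also cleaves other mRNAs at the endoplasmic reticulum, a process known as regulated IRE1-dependent decay. Ligands of the kinase pocket can raise or lower the RNase output. The series title calls the PAIR compounds ATP-competitive partial antagonists.

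Counts were deposited by Ensembl gene ID, and the table used here for names pairs none of these IDs with a symbol. The genes are therefore described as groups of IDs, and only 4 IDs are named, so the beta-cell markers and the transgene were not read by name. Depth in the 6 libraries ran from 12.6 to 23.8 M counts. A gene without a read there may still have stood at up to 3 counts, which is 0.126 to 0.238 CPM (counts per 1 M, TMM-scaled where a level is given). One PAIR1 library (replicate 1) and one uninduced library (replicate 2) belong to a set of 6 libraries in the series that share 41 IDs at a higher level than in any of the other 18. Those IDs held 0.667 to 0.744% of counts inside the set and 0.0705 to 0.0853% outside it. In the comparison described here edgeR called 0 of the 41, of which 0 had an unadjusted p under 0.05, and DESeq2 called 0. With 1 library of the set in each group, both means and both spreads of these IDs are raised. These counts therefore do not show whether the set affects the comparison.

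PAIR1-treated induced cells differed from uninduced cells in 3849 of the 13760 IDs tested, or 28.0%. Of these, 1881 were higher (13.7% of IDs tested) and 1968 were lower (14.3%). Calls are at an adjusted p below 0.05 in edgeR's quasi-likelihood test. Most changes were small: 85.5% of the raised and 76.8% of the lowered IDs differed by less than 1.5-fold. Larger changes lay more often on the lower side, where 203 IDs fell by 2-fold or more, against 63 that rose as far. The called IDs had a median change of 0.29 on the log2 scale among raised and -0.32 among lowered IDs. The 3 PAIR1 and 3 uninduced libraries did not overlap in 3617 of the called IDs (94.0%), against 36.9% of all IDs tested, called ones included. The same libraries made the calls, so the higher share among called IDs is a description. Without PAIR1 replicate 1 and uninduced replicate 2 together, 3157 IDs were called.

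The share of IDs called rose with their level. When IDs were split by their mean over all 24 libraries into 4 groups of 3440, the scarcest group (0.162 to 6.16 CPM) had 3.81% higher and 4.30% lower. The most abundant group (69.7 to 18200 CPM) had 23.9% higher and 23.8% lower. The median called change, regardless of sign, was 0.83 on the log2 scale in the scarcest group and 0.23 in the most abundant one. The median standard error (SE) of the change was 0.29 and 0.042, so scarce IDs needed larger changes to be called. Of the 9911 IDs that were not called, 7106 had a 95% interval of the change that lay wholly within 1.5-fold in either direction.

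The called IDs were sorted by what induction alone had done at 24 h. An ID was counted as kept when induced vehicle cells had been called on the same side of uninduced cells. It was counted as new when they had not, and PAIR1 also differed from induced vehicle cells in that direction. The rest were left unresolved. Kept IDs were 1359 of the 1881 raised (72.2%) and 1674 of the 1968 lowered (85.1%). New IDs were 458 of the raised (24.3%) and 225 of the lowered (11.4%), which leaves 64 and 69 unresolved. Induction itself had called 29.8% of all IDs tested higher and 32.0% lower, and PAIR1 against induced vehicle cells 30.0% higher and 24.9% lower. The induction and the PAIR1 comparison use the same 3 uninduced libraries, so the number kept is a description, and part of it can come from those libraries. The time given in another label of the induced vehicle libraries contradicts their titles. Under that label 778 raised and 757 lowered IDs were kept and 813 and 927 were new. The column names of the counts give the times of the titles. Grouped by title, induced vehicle and uninduced cells at 4 h differed in 41 IDs. Uninduced cells at 24 h and at 4 h differed in 3739. Which label is right was not tested. Without the 6 libraries that share the 41 IDs, 117 lowered IDs were new.

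**Figure D1:**
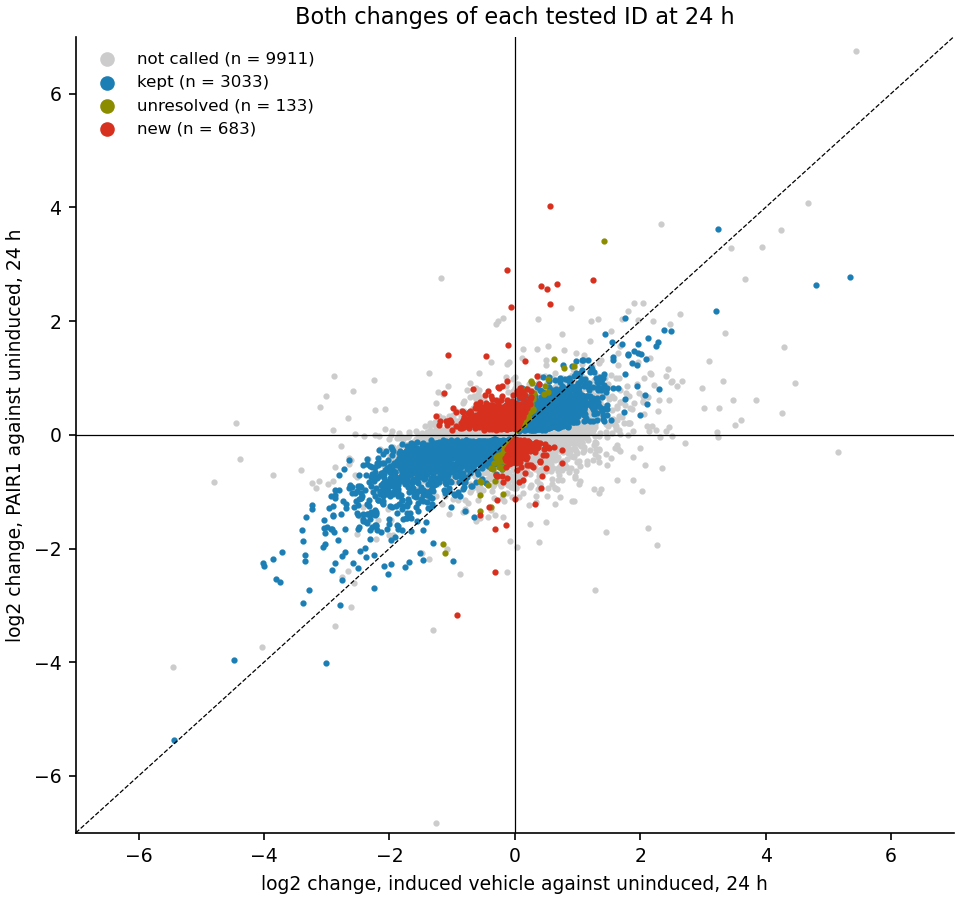
Each point is 1 of 13760 tested IDs. The horizontal axis is its log2 change from uninduced cells in induced vehicle cells and the vertical axis that in PAIR1 cells, both at 24 h, with the dashed line at equal change. The 3033 kept IDs lie mostly between the horizontal axis and the dashed line, and the 683 new IDs lie above it when raised and below it when lowered. Both axes use the same 3 uninduced libraries.

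Among kept IDs, 791 raised and 1332 lowered ones had moved back in part, since PAIR1 differed from induced vehicle cells toward the uninduced level. For the raised ones the median change from uninduced cells was 0.60 on the log2 scale with vehicle and 0.26 with PAIR1, and for the lowered ones it was -1.15 and -0.33. A further 498 raised and 320 lowered kept IDs were not told apart from induced vehicle cells. Their medians were 0.38 with vehicle and 0.34 with PAIR1 among the raised, and -0.39 and -0.34 among the lowered. The smallest group, 70 raised and 22 lowered IDs, stood further from uninduced cells with PAIR1 than with vehicle. Its medians were 0.28 with vehicle and 0.57 with PAIR1 among the raised, and -0.28 and -0.51 among the lowered.

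Read from the side of induction, 33.1% of the 4102 IDs that it raised were still higher with PAIR1 than in uninduced cells, 1.63% had passed below them and 65.2% were not called. Of the 4401 lowered IDs, 38.0% were still lower, 5.39% had passed above and 56.6% were not called. Not being called does not show a return: the 95% interval lay within 1.5-fold for 2224 of the 2676 such raised IDs and 2131 of the 2490 lowered ones. Scaling by library totals in place of TMM moved the median induction change of all IDs by 0.13 on the log2 scale and the median change of PAIR1 from induced cells by -0.11. It moved the raised share of the calls from 48.2 to 61.3% for induction and from 54.7 to 40.8% for PAIR1 against induced cells, while for PAIR1 against uninduced cells the median moved by 0.025 and the share went from 48.9 to 57.1%. With library totals 1782 raised and 1377 lowered IDs were kept, against 1359 and 1674 with TMM, so the order of the 2 counts reversed. The directions of the induction classes are thus relative to the other IDs.

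The deepest losses were kept most often. Of the 215 IDs that induction had lowered over 4-fold, 176 (81.9%) were still lower with PAIR1, and their median change went from -2.38 with vehicle to -1.12 with PAIR1. Of the 1042 lowered 2-fold to 4-fold, 685 (65.7%) were still lower, and of the 952 lowered less than 1.25-fold, 189 (19.9%). Among raised IDs the share still called showed no such order: 134 of 324 raised 2-fold to 4-fold (41.4%) and 14 of 63 raised over 4-fold (22.2%) were still higher. Their median change with PAIR1 did grow with that of induction. It was 0.05 (0.23 with vehicle) for IDs raised less than 1.25-fold. It was 0.48 (1.23) for those raised 2-fold to 4-fold and 0.87 (2.48) for those raised over 4-fold. Those strongly raised IDs were scarce transcripts, with a median level of 2.95 and 0.918 CPM over all libraries, and their median SE was 0.24 and 0.65, against 0.077 and 0.091 for the lowered IDs of the same size of change. The share still called is therefore not comparable between raised and lowered IDs. IDs that passed the uninduced level lay among the smaller changes: 101 of the 952 lowered less than 1.25-fold (10.6%) were higher than in uninduced cells, against 9 of the 1042 lowered 2-fold to 4-fold (0.864%).

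**Figure D2:**
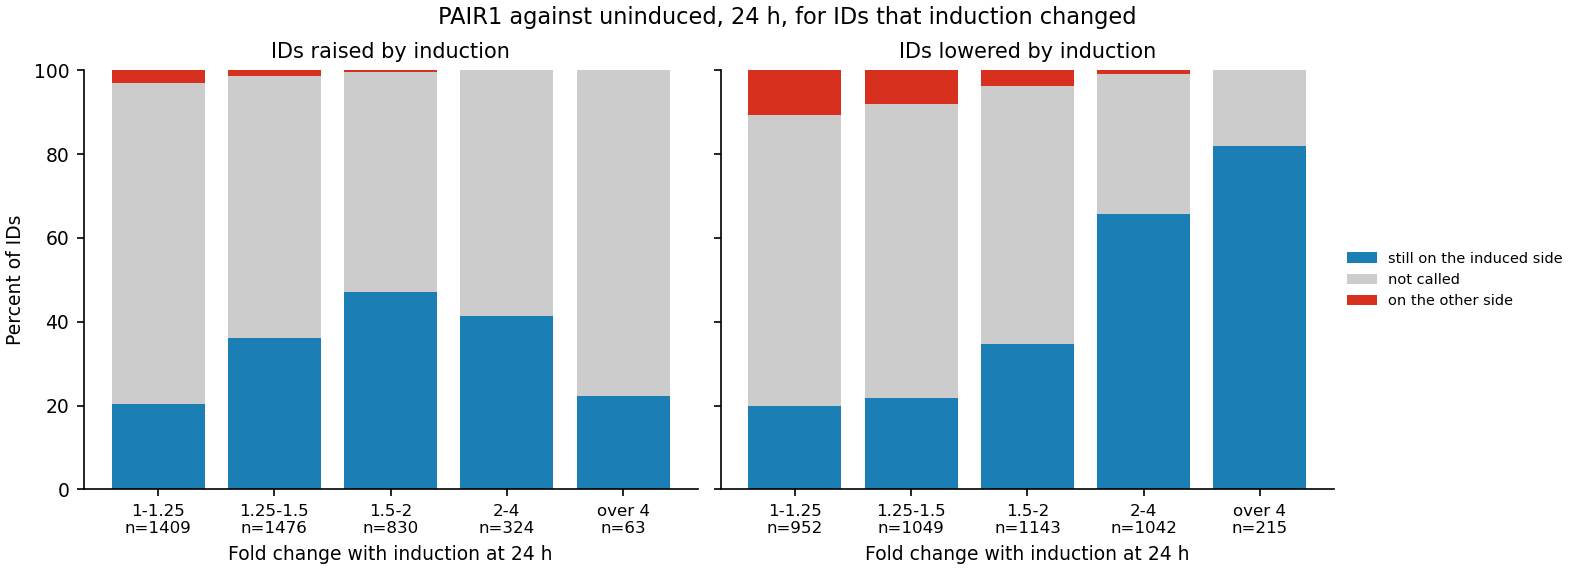
Bars give the percent of IDs raised (left) or lowered (right) by induction at 24 h that were still on that side of uninduced cells with PAIR1, not called, or on the other side, by the fold change with induction. The part still on the induced side grows to 81.9% of the 215 IDs lowered over 4-fold. On the raised side it is highest, 47.1%, between 1.5-fold and 2-fold.

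New IDs fell into those that induction had not called and those that it had moved the other way. The first held 221 raised IDs, with a median change of 0.33 on the log2 scale against -0.01 with vehicle, and 158 lowered IDs (-0.26 against 0.02). The second held 237 raised IDs, which induction had lowered by a median of -0.39 and which stood at 0.24 with PAIR1, and 67 lowered IDs (0.25 with vehicle and -0.21 with PAIR1). Changes of at least 2-fold were found in 13 of the 458 new raised and 9 of the 225 new lowered IDs, all among those that induction had not called, and in 46 of the 1359 kept raised and 188 of the 1674 kept lowered IDs.

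The classes also held different parts of the transcriptome, which the summed counts of each library show. Kept raised IDs took 12.2 to 12.3% of counts in the uninduced libraries, 18.9 to 19.1% in induced vehicle libraries, 15.5 to 15.7% with PAIR1 and 14.2 to 14.3% with KIRA9 at 24 h. Kept lowered IDs took 23.1 to 23.4% in uninduced, 13.0% in induced, 17.7 to 18.1% in PAIR1 and 20.9 to 21.0% in KIRA9 libraries. PAIR1 libraries lay between the induced and the uninduced ones in both. New raised IDs took 6.38 to 6.58% in uninduced, 5.89 to 5.94% in induced, 8.06 to 8.14% in PAIR1 and 8.21 to 8.28% in KIRA9 libraries. New lowered IDs took 3.07 to 3.15%, 3.58 to 3.64%, 2.77 to 2.82% and 2.61 to 2.65% in the same order, so that both compounds lay outside the range of both vehicle groups. The libraries of uninduced, induced and PAIR1 cells at 24 h chose these classes, so their order is a description.

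The values of the 4 h libraries were not compared in that choice, although those libraries share its filter and its estimate of spread. With the 24 h libraries alone 3498 IDs were called, 3398 of them shared. At 4 h new raised IDs took 7.08 to 7.13% of counts in uninduced, 7.04 to 7.08% in induced, 7.54 to 7.61% in PAIR1 and 8.02 to 8.08% in KIRA9 libraries. New lowered IDs took 2.83 to 2.85%, 2.81 to 2.85%, 2.65 to 2.66% and 2.49 to 2.52%. In both classes the compound libraries did not overlap with either vehicle group, on the side seen at 24 h. Kept raised IDs at 4 h took 13.1 to 13.2% in uninduced, 13.3 to 13.4% in induced, 13.7 to 13.8% in PAIR1 and 14.0 to 14.1% in KIRA9 libraries, while for kept lowered IDs the means were 22.1 ± 0.069% (SD, n = 3), 21.6 ± 0.090%, 21.8 ± 0.062% and 21.6 ± 0.047%. In uninduced cells themselves the share of new raised IDs was lower at 24 h than at 4 h and that of new lowered IDs was higher. Their median changes were -0.11 and 0.17 on the log2 scale. Kept IDs moved the same way in uninduced cells, with medians of -0.11 for raised and 0.07 for lowered ones. Their mean shares went from 13.2% at 4 h to 12.2% at 24 h and from 22.1 to 23.2%. With PAIR1 the share of new raised IDs was higher at 24 h than at 4 h, the opposite of the uninduced cells. The share of new lowered IDs was also higher at 24 h with PAIR1, from a mean of 2.66 to 2.80%, as it was in uninduced cells, from 2.84 to 3.11%. The 24 h values of PAIR1 and uninduced cells chose these classes and their direction. These differences between times are therefore a description.

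**Figure D3:**
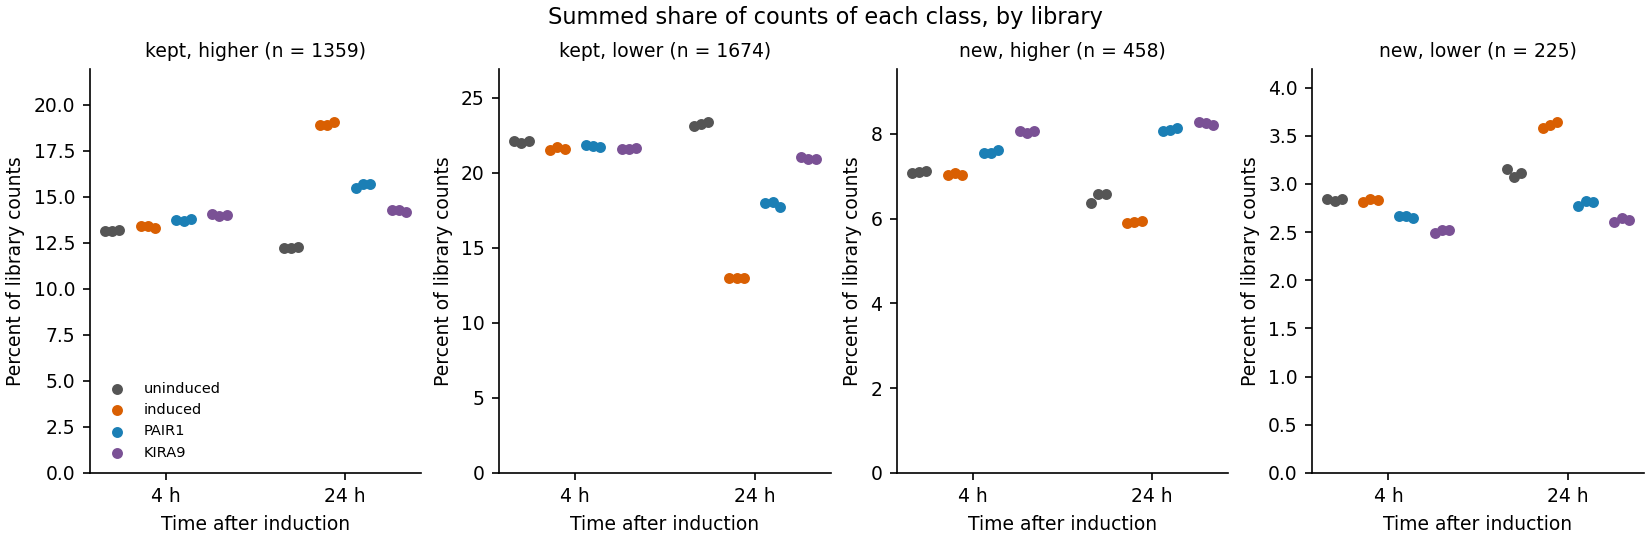
Each point is 1 library, and its height is the percent of that library's counts that falls in a class of IDs defined at 24 h. At 24 h PAIR1 libraries (15.5 to 15.7%) lie between uninduced (12.2 to 12.3%) and induced ones (18.9 to 19.1%) for kept raised IDs, and above both for new raised IDs.

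The same comparison at 4 h asked how early the differences were present. It called 215 IDs higher (1.56% of those tested) and 136 lower (0.988%), in libraries that share none with 24 h. Of the 215, 121 (56.3%) were also higher at 24 h, 23 were lower and 71 were not called. Of the 136, 64 (47.1%) were also lower, 13 were higher and 59 were not called. The shared IDs were 6.43% of those raised and 3.25% of those lowered at 24 h. Among new IDs 8.73% of the raised were called higher at 4 h and 11.1% of the lowered were called lower. Among kept IDs the shares were 5.96% and 2.27%. Among the 70 raised and 22 lowered kept IDs that stood beyond induced vehicle cells they were 21.4% and 31.8%. The total of 351 calls depended on single libraries: leaving out any 1 of the 3 PAIR1 and 3 uninduced libraries of 4 h gave 196 to 231. The counts by class were not recomputed so.

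New IDs leaned the same way at 4 h below the level of calls. Of the 458 new raised IDs 74.5% had a positive change with PAIR1 at 4 h, with a median of 0.05 on the log2 scale, and of the 225 new lowered IDs 78.2% had a negative change, with a median of -0.08. Over all IDs tested 51.1% were positive and the median was 0.00. The kept classes stood nearer to zero, with medians of 0.03 and -0.01. On the side of their 24 h call lay 65.1% of the kept raised and 54.4% of the kept lowered IDs. For kept IDs moved back in part the shares were 59.4% and 50.5%, and for those not told apart from induced cells 70.7% and 68.1%. Kept IDs beyond induced cells leaned further than new IDs, with 90.0% and 95.5% and medians of 0.08 and -0.15. The lean is thus not particular to new IDs. Induction alone at 4 h had called 0.0363% of IDs higher and 0.262% lower, or 41 of the 13760 tested. Of the 683 new IDs it called 0 in edgeR's test and 0 in DESeq2's, with 40 at an unadjusted p under 0.05. Over all IDs tested it gave 833 at such a p, so these counts do not set the new IDs apart. Its medians were 0.00 for the new raised and -0.01 for the new lowered IDs. It called 4 of the kept raised and 35 of the kept lowered IDs in the direction kept. KIRA9 against uninduced cells at 4 h called 5.44% of IDs higher and 5.49% lower. Among the new raised IDs it called 102 (22.3%) higher and 23 lower, and among the new lowered IDs 87 (38.7%) lower and 4 higher. Among kept raised IDs it called 185 (13.6%) higher and 85 lower, and among kept lowered IDs 185 (11.1%) lower and 88 higher. Of the kept IDs beyond induced cells it called 26 of 70 (37.1%) higher and 2 lower, and 13 of 22 (59.1%) lower and 1 higher. The 4 h comparisons of PAIR1, KIRA9 and induction share the uninduced libraries of that time.

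**Figure D4:**
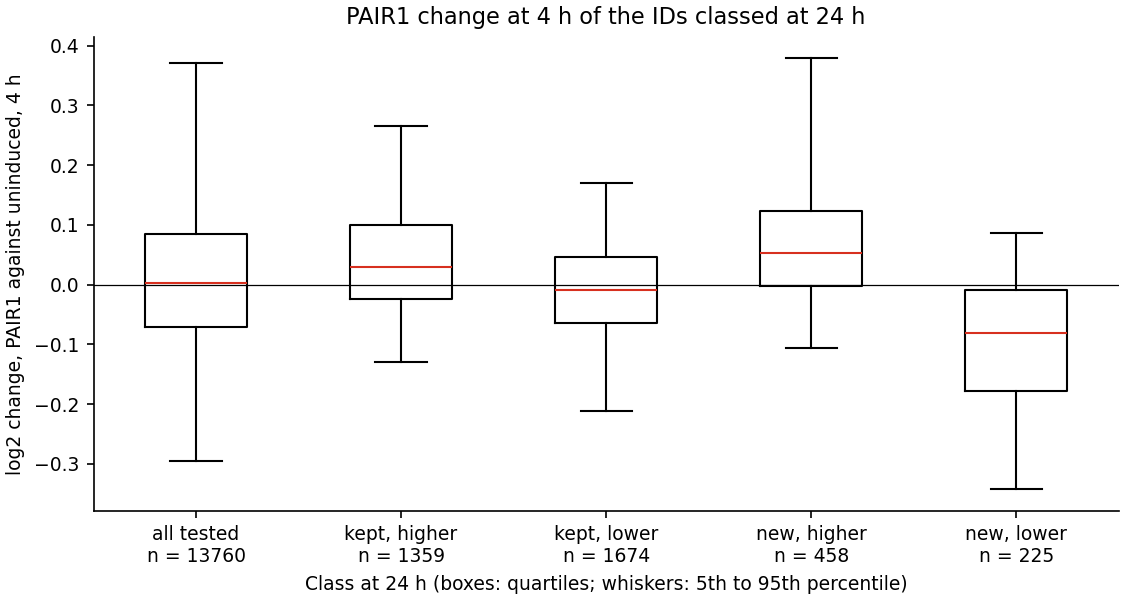
Boxes give the quartiles and median, and whiskers the 5th to 95th percentile, of the log2 change of PAIR1 from uninduced cells at 4 h, for all tested IDs and for the classes defined at 24 h. The medians of new raised (0.05) and new lowered IDs (-0.08) lie further from zero than those of all kept IDs together (0.03 and -0.01).

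The difference between times was tested directly. The change with PAIR1 was more positive at 24 h than at 4 h in 1028 IDs (7.47%) and more negative in 1186 (8.62%). Of the 1881 IDs higher at 24 h, 926 (49.2%) were among the former, and of the 1968 lower ones 1092 (55.5%) were among the latter. By class, the change differed between times in the direction of the 24 h call in 51.8% of kept raised, 62.2% of kept lowered, 45.6% of new raised and 17.8% of new lowered IDs. The difference holds the same 24 h values that chose these IDs and their direction, so the shares are a description.

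KIRA9 gave a point of comparison at 24 h, as applied, since doses are not stated. The comparisons of both compounds with uninduced cells share the uninduced libraries, and their medians are given side by side. For new raised IDs the median change from uninduced cells was 0.27 with PAIR1 and 0.30 with KIRA9, and for new lowered IDs -0.24 and -0.26. For kept raised IDs it was 0.30 with PAIR1 and 0.20 with KIRA9, and for kept lowered IDs -0.34 and -0.13. The direct test called PAIR1 different from KIRA9 in 16.3% of all IDs, and lower in 10.3%. It called 393 of the 1359 kept raised IDs (28.9%), 385 of them higher with PAIR1, and 928 of the 1674 kept lowered IDs (55.4%), 913 of them lower with PAIR1. Among the new raised IDs it called 91 (19.9%), 67 of them lower with PAIR1, and among the new lowered IDs 41 (18.2%), 34 of them higher. The PAIR1 libraries of the direct test also helped to define the classes.

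The classes were also called without each of the 6 libraries in turn and read in the library that had been left out. A PAIR1 library so treated lay on the called side of the uninduced mean in 98.6 to 99.8% of kept raised, 99.2 to 99.9% of kept lowered, 97.4 to 99.0% of new raised and 94.1 to 97.6% of new lowered IDs. Its median change for kept raised IDs was 0.29 in replicate 1, 0.31 in replicate 2 and 0.32 in replicate 3, and for new raised IDs 0.26, 0.26 and 0.29. Each left-out library was read against the mean of the other group that had also called the classes, so these shares are a description. Among the uninduced libraries, replicate 1 gave the lowest agreement, 93.4% of kept raised and 82.3% of new lowered IDs. In all, 2557 of the 3849 calls (66.4%) were made with all libraries and with each of the 6 left out. The share was 72.5% for kept lowered, 66.3% for kept raised, 67.7% for new raised and 50.2% for new lowered IDs.

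The 4 named IDs had the largest change in their class and direction. The choice was made among called IDs whose higher group averaged 5 CPM or more, whose groups did not overlap and whose libraries spread no more than 8-fold within a group. ENSRNOG00000012864 led the kept raised IDs. It stood at 113, 100.1 and 99.0 CPM in the uninduced, 945, 1011 and 999 in the induced, 1232, 1348 and 1251 in the PAIR1 and 775, 775 and 717 in the KIRA9 libraries at 24 h. The PAIR1 libraries were above all others. The change from uninduced cells was 3.62 ± 0.05 (SE) on the log2 scale, or 12.3-fold (edgeR, adjusted p = 1.2e-22). PAIR1 exceeded induced vehicle cells by 0.37 ± 0.05 (adjusted p = 4.6e-07). At 4 h the order was the other way, with 663, 656 and 623 CPM with PAIR1 against 812, 798 and 745 with vehicle (log2 change -0.28 ± 0.05, adjusted p = 9.8e-04). Both were already above the uninduced libraries of 4 h (107.8 to 116.4 CPM), by 2.51 ± 0.05 with PAIR1 and 2.79 ± 0.05 with vehicle on the log2 scale. KIRA9 libraries at 4 h were at 401.7 to 404.5 CPM.

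ENSRNOG00000029399 led the kept lowered IDs. It stood at 90.0, 96.5 and 91.7 CPM in the uninduced, 13.7, 11.5 and 14.9 in the induced, 12.04, 10.65 and 12.02 in the PAIR1 and 23.5, 18.5 and 23.0 in the KIRA9 libraries. PAIR1 and induced vehicle libraries overlapped, and KIRA9 libraries lay above both. The change from uninduced cells was -3.00 ± 0.09 with PAIR1 (adjusted p = 2.8e-17) and -2.79 ± 0.09 with vehicle. The difference between PAIR1 and vehicle, -0.21 ± 0.10, was not called (adjusted p = 0.066), whereas that between PAIR1 and KIRA9, -0.91 ± 0.09, was (adjusted p = 1.3e-07). At 4 h PAIR1 libraries were at 51.4 to 59.8 CPM and overlapped with the uninduced ones at 56.0 to 60.6, while induced vehicle libraries were at 39.1 to 42.0. In uninduced cells themselves this ID rose from 4 h to 24 h (0.67 ± 0.08, adjusted p = 1.7e-06).

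ENSRNOG00000029810 led the new raised IDs, at a low and uneven level. It stood at 2.71, 0.754 and 1.51 CPM in the uninduced, 4.67, 1.27 and 1.12 in the induced, 6.66, 11.2 and 12.4 in the PAIR1 and 7.59, 9.40 and 1.70 in the KIRA9 libraries. The PAIR1 libraries did not overlap with the uninduced or induced ones, but libraries of the other 2 groups that received doxycycline ranged over 4-fold within a group. The change from uninduced cells was 2.56 ± 0.64 (adjusted p = 0.0036) and that from induced cells 2.05 ± 0.62 (adjusted p = 0.0073). KIRA9 and PAIR1 were not told apart (log2 difference 0.71 ± 0.58, adjusted p = 0.46), and KIRA9 was also called against uninduced cells (1.85 ± 0.64, adjusted p = 0.040). At 4 h the induced vehicle libraries were at 7.17, 1.28 and 2.27 CPM and the KIRA9 ones at 3.13, 6.18 and 6.51. The highest induced one at 4 h was thus above the lowest PAIR1 library of 24 h. Uninduced libraries at 4 h were at 1.21 to 3.59 CPM and PAIR1 ones at 1.195 to 1.86.

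ENSRNOG00000006694 led the new lowered IDs. It stood at 6.68, 6.41 and 5.23 CPM in the uninduced, 4.44, 5.67 and 4.98 in the induced, 2.77, 2.83 and 2.71 in the PAIR1 and 2.28, 2.06 and 1.25 in the KIRA9 libraries. Libraries of both compounds lay below all vehicle libraries, and induced and uninduced libraries overlapped. The change with PAIR1 was -1.14 ± 0.21 from uninduced cells (adjusted p = 1.7e-04) and -0.86 ± 0.21 from induced cells (adjusted p = 0.0014). Uninduced libraries at 4 h were at 3.15 to 3.94 CPM, and the level in uninduced cells rose to 24 h (0.76 ± 0.20, adjusted p = 0.0075), whereas PAIR1 libraries were at 3.12 to 4.24 CPM at 4 h.

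**Figure D5:**
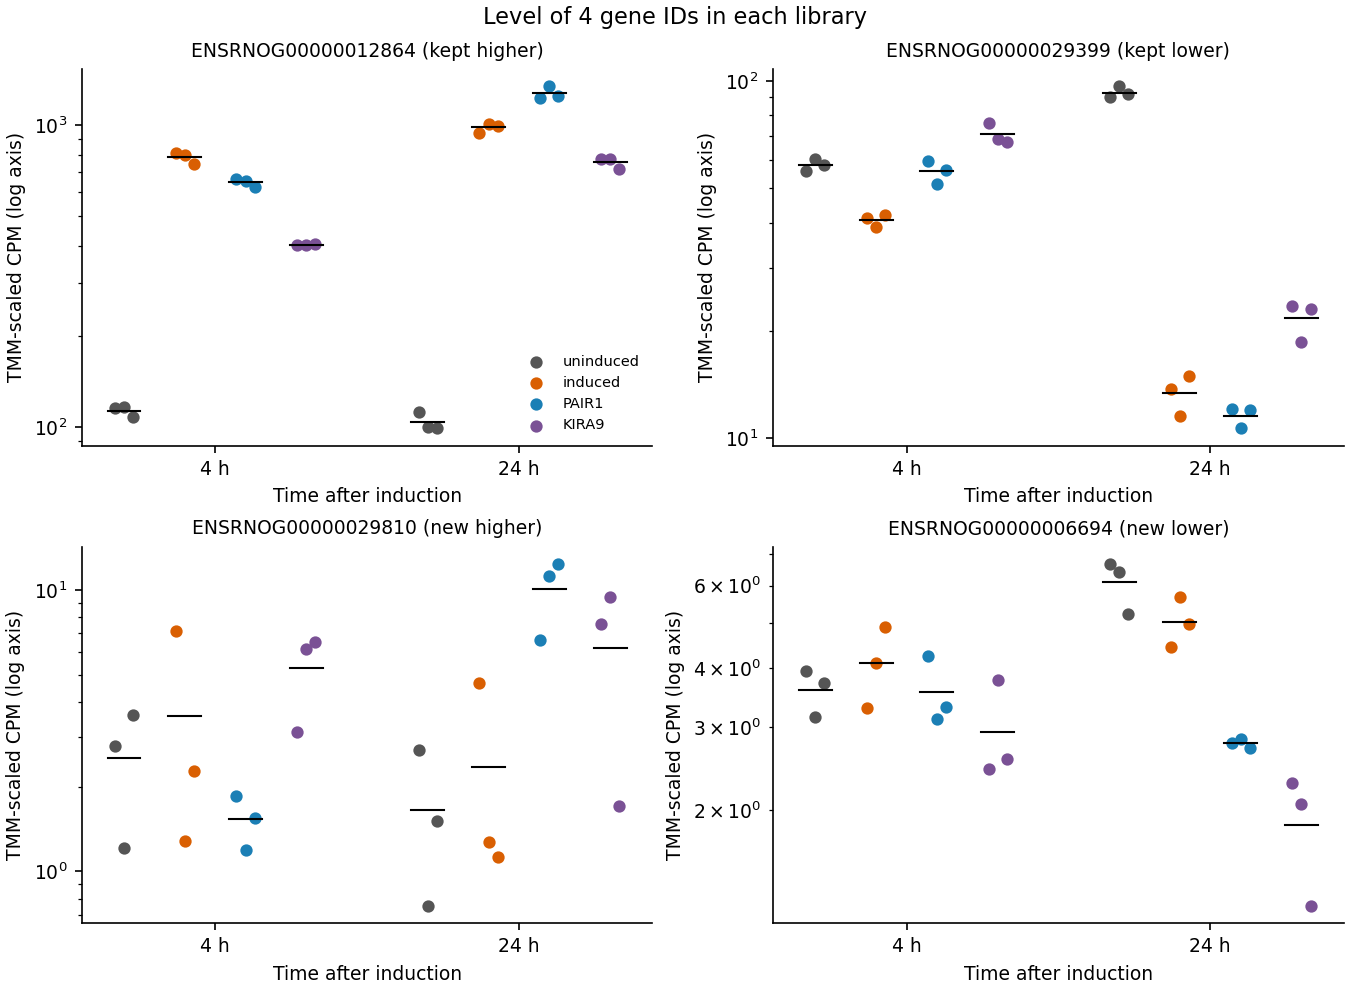
Each point is the TMM-scaled CPM of 1 library on a log axis, and each bar is the mean of 3 libraries, by treatment and time, for the 4 named IDs. PAIR1 libraries at 24 h lie above all others for ENSRNOG00000012864 and overlap with induced vehicle libraries for ENSRNOG00000029399.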

How the data were processed

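Poly(A) RNA of INS1 cells was sequenced, and the authors deposited raw read counts per gene ID, not normalized. Per the submitters' processing notes the tools were HISAT2 and HTSeq, with no version. Build, annotation and strand setting are not given in the sources used here. Overlapping or near-identical genes may share reads. Groups and replicate numbers come from sample titles. For the 6 induced vehicle libraries the time characteristic contradicts the title, which was followed.

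Of 26689 IDs, 13760 passed filterByExpr at a minimum count of 10 over the 8 groups and these took 99.94% or more of the counts in every library. edgeR 4.0.16 in R 4.3.3 fitted 1 quasi-likelihood model to all 24 libraries with TMM scaling, and p-values were adjusted by Benjamini-Hochberg over all 13760 IDs. The SE of a change is its size divided by the root of the F statistic. Nothing says that replicates are separate cultures, so p-values measure the spread between these samples, which may be technical. Counting limits ignore PCR duplication. The members, classes and gene lists were chosen with earlier results of these data known. The lists and the rule's symbol-based names could not be applied, because no ID matched a symbol, and its case of 4 IDs was used. The fit was tested on simulated data. Alternatives included DESeq2 1.42.0, other scalings, filters and thresholds, and left-out libraries.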

Additional observations from a re-analysis of the deposited data

Results flagged for a closer look

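The change from uninduced cells with PAIR1 differed between 24 h and 4 h in 2214 IDs by the test of that difference in edgeR. All 4 named IDs, chosen for their change at 24 h, were among them. The log2 difference, 24 h minus 4 h, was 1.10 for ENSRNOG00000012864, -2.94 for ENSRNOG00000029399, 3.28 for ENSRNOG00000029810 and -1.12 for ENSRNOG00000006694 (adjusted p of 2.2e-11, 2.2e-14, 0.016 and 0.0098). The last 3 were not called with PAIR1 at 4 h.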

How the results depend on the processing

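Of 188 recomputed counts, 163 stayed within 1.5 times the value given, and the 64 recomputed changes of the 4 named IDs kept their direction and their call. Requiring a 1.5-fold change left 728 calls for PAIR1 against uninduced cells at 24 h (272 higher, 456 lower), 179 kept raised, 416 kept lowered, 38 new raised and 18 new lowered IDs, 34 calls at 4 h and 581 for the difference between times. At an adjusted p below 0.01 there were 102 new lowered IDs, 151 calls at 4 h and 1447 for the difference between times. With the conflicting time labels of the induced vehicle libraries, 778 and 757 IDs were kept and 813 and 927 were new (raised and lowered); the change of induced groups is the setting itself. Without all 6 libraries that share the 41 IDs, an alternative chosen after seeing the data that leaves 1 induced library at 24 h and assumes that it varies like the others, 117 new lowered IDs and 161 calls at 4 h were found. With only the 6 libraries compared at 4 h, 198 IDs were called there. With 1 replicate left out the calls at 24 h ran from 3181 to 3608. Those at 4 h ran from 196 to 231 without 1 of the PAIR1 or uninduced libraries of 4 h. Without 1 of the PAIR1 or uninduced libraries of 24 h, which share the filter and the estimate of spread, they ran from 307 to 473. DESeq2 called 3649 IDs at 24 h, of which 3570 were shared. Same-numbered PAIR1 and uninduced libraries deviated from their group means with correlations of -0.14, -0.17 and 0.03. Differently numbered ones gave -0.13 to 0.24. No pairing by number was seen, but so few libraries cannot exclude it. The replicate block gave 3864 calls at 24 h and changed no call of a named ID. Depth limits the low IDs: in the scarcest of the 4 groups by level the median SE was 0.29.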
